A study of Arabidopsis thaliana with 28 samples.

Results

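This account covers the cells sorted for CVP2:NLS:VENUS, which the study used to mark the protophloem (Protophlo), set against meristematic non-stem cells (NSC) of the Arabidopsis thaliana root. The members are the 4 CVP2:NLS:VENUS samples and the 4 NSC samples, 8 of the 28 samples of the series, and the 18760 of 33201 genes that had a level of at least 1 FPKM (read fragments scaled by transcript length and library size) in at least 3 of these 8 samples. The CVP2:NLS:VENUS line carries a yellow fluorescent protein that is held in the nucleus and made under the promoter of CVP2. The NSC came from AGL42:GFP plants, in which the promoter of the MADS-box gene AGL42 labels the stem cell niche, and were the cells without GFP, so AGL42 itself served to choose them. All plants were wild-type Col-0 apart from the reporter and 5 days old, and the tip of the root was turned into protoplasts with wall-degrading enzymes before sorting, so every sample is a pool of many seedlings. A further 16 samples of 5 other marker lines, namely CYCD6:GFP for the cortex endodermis initials (CEI), FEZ:FEZ:GFP for the initials of epidermis and lateral root cap (Epi/LRC), J2341:GFP for the columella stem cells (CSC), TMO5:3xGFP for the xylem initials (Xyl) and WOX5:GFP for the quiescent center (QC), serve below as a second comparison. The GFP-positive AGL42:GFP cells (SCN, the whole niche) entered no test.

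The protophloem is the first strand of phloem to mature in the root tip. Its cells become sieve elements, which lose the nucleus and most organelles and carry sugars to the growing tip, and they are flanked by companion cells that load and feed them. CVP2 encodes a phosphoinositide 5-phosphatase that is needed for an unbroken protophloem strand. Root hairs, at the other end of the radial plan, are single tubular outgrowths of epidermal cells, made by a cascade of basic helix-loop-helix (bHLH) factors that runs from RHD6 to RSL4 and on to wall and membrane proteins of the growing tip.

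No sieve element gene was past the threshold as higher in the samples labelled protophloem, and the root hair genes were high in all 4 of them. Of 12 sieve element and protophloem genes that could be tested, 0 were higher and 2 were lower in CVP2:NLS:VENUS samples than in NSC. In the epidermis and root hair list, which was not added later, 8 of 16 tested genes were higher and 0 lower. Of 18 genes named root hair specific, a list added after the values had been seen, 17 were higher. A gene counted as higher or lower when the adjusted p-value of limma (Benjamini-Hochberg over the 18760 genes) was under 0.06 and the fold change on the log2(FPKM + 1) scale was above 2. The shares of sieve element genes that were higher and that were lower are both close to those of all genes, given next. By this rule 24.8% of the tested genes differed: 1426 genes, 7.6%, were higher in the CVP2:NLS:VENUS samples, and 3220 genes, 17.2%, were lower. The median log2 fold change over all genes was -0.33, and it moved to -0.15 with median-of-ratios size factors and to 0.04 with quantile normalization. The share of higher genes among those past the threshold was 30.7% on the deposited scale, 42.4% with size factors and 51.7% with quantile normalization, so the split between the directions depended on the scaling. The root hair lists kept their direction, with 18 of 18, 8 of 8 and 11 of 16 genes higher under quantile normalization, as did developmental cell death with 7 of 7 lower, and the sieve element list then had 0 higher and 1 lower. The pseudocount of 1 makes the fold change of low genes smaller than that of their FPKM, and in such bulk samples fewer cells of a type and less RNA per cell cannot be told apart.

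The 8 samples differed in ways that bear on these values. Pearson's r of log2(FPKM + 1) lay between 0.748 and 0.914 among the CVP2:NLS:VENUS samples and between 0.924 and 0.976 among the NSC. At least 1 FPKM was reached by 13643 to 17093 genes in CVP2:NLS:VENUS samples and by 17149 to 18083 genes in NSC (exact permutation test, two-sided, p = 0.0286, the smallest that 4 against 4 samples allow). CVP2:NLS:VENUS replicate 4 stood apart in genes of the endodermis and replicate 1 in genes of mitosis, and the counts that rest on them are given below with and without them. Read counts were not among the deposited values, and how deeply each sample was sequenced is unknown. The 7 NSC and CEI samples also formed a kind of their own in the table, where the CEI columns carry only an initial and a replicate number and were matched by the elimination of other lines. The 18S ribosomal RNA gene AT2G01010 lay between 0.357 and 1.01 FPKM in the CVP2:NLS:VENUS samples and between 557 and 826 FPKM in NSC, and over the series it stayed at or under 3.03 FPKM in the 21 samples other than NSC and CEI. Those 21 samples each listed 232 to 714 genes above 0 but under 0.001 FPKM, against 1 to 18 genes in the NSC and CEI samples. For 129 of the 3220 lower genes all 7 NSC and CEI values were above all 21 others. All 4 NSC samples were of this kind and all 4 CVP2:NLS:VENUS samples were of the other. For every gene compared between them, the handling of the samples and the cell population therefore cannot be told apart.

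**Figure D1:**
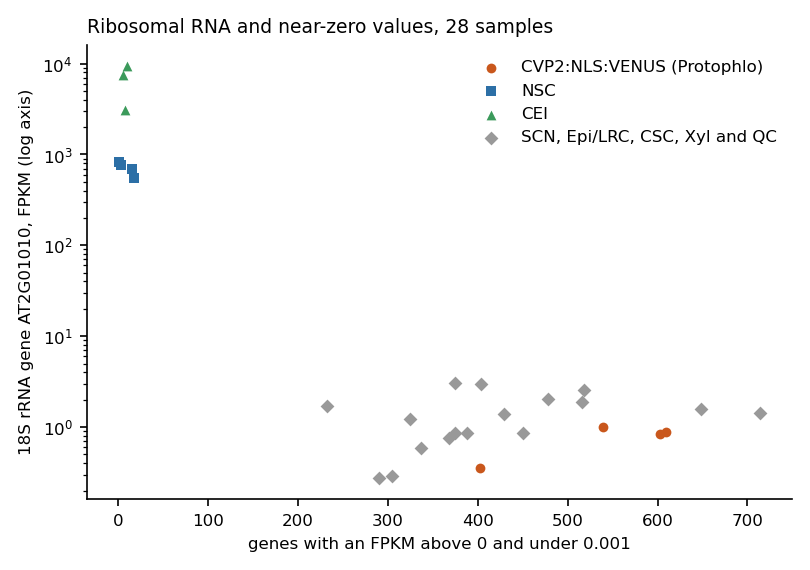
Number of genes listed above 0 and under 0.001 FPKM (x axis) and the level of the 18S ribosomal RNA gene AT2G01010 (y axis, FPKM, log axis), 1 point for each of the 28 samples. The 4 NSC and 3 CEI samples sit at the top left with 1 to 18 such genes, and the 4 CVP2:NLS:VENUS samples lie at the bottom with the other populations.

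Next, the label was checked against the genes that define the tissue. CVP2 itself was at 1.71, 0.207, 0 and 5.22 FPKM in the 4 CVP2:NLS:VENUS samples and at 1.08, 1.03, 0.8596 and 1.43 FPKM in NSC. Replicate 4 was the highest of the 8 and replicates 2 and 3 were the lowest, so the groups overlapped (log2 fold change 0.02, SE 0.55, adjusted p = 0.981). The sign of this difference depended on the setting: it was -0.49 without CVP2:NLS:VENUS replicate 4 and -0.93 without replicates 1 and 4. CVL1, the closest relative of CVP2, was at 0.0224, 0, 2.12 and 1.94 FPKM in CVP2:NLS:VENUS samples and at 0.588, 1.03, 0.843 and 0.856 FPKM in NSC, also with overlap. APL, the MYB-type factor that sets phloem identity, was at 3.46, 3.58, 3.44 and 0 FPKM in CVP2:NLS:VENUS samples and at 12.9, 11.5, 2.797 and 6.78 FPKM in NSC (log2 fold change -1.46, SE 0.62, adjusted p = 0.114). APL was thus detected in 3 of the 4 samples, at levels near the lowest of the NSC.

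Of the regulators that act inside the differentiating strand, the next 3 did not pass the threshold. BRX, a membrane-bound protein of protophloem differentiation, was at 0.664, 0.283, 2.55e-05 and 1.12e-04 FPKM in CVP2:NLS:VENUS samples and at 1.02, 0.839, 4.47 and 1.09 FPKM in NSC, without overlap but short of the threshold (log2 fold change -1.08, SE 0.41, adjusted p = 0.0792). OPS, another polar membrane protein of this cell file, had 1.77, 1.498, 2.78 and 0.06003 FPKM in CVP2:NLS:VENUS samples and 10.1, 5.95, 2.31 and 0.715 FPKM in NSC. PAX, a protein kinase that works with BRX, had 2.02, 0.353, 0.0292 and 5.62 FPKM in CVP2:NLS:VENUS samples and 5.42, 4.41, 1.43 and 2.39 FPKM in NSC. Both overlapped between the groups, with log2 fold changes of -0.997 for OPS and -0.84 for PAX.

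The factors of enucleation were also without a rise. NAC045, which with NAC086 switches on the loss of the nucleus, was listed at 0 in CVP2:NLS:VENUS replicates 1 to 3 and at 23.8 FPKM in replicate 4, against 5.28, 6.097, 3.95 and 4.02 FPKM in NSC. NAC086 was listed at 0 in all 4 CVP2:NLS:VENUS samples and did not exceed 0.835 FPKM in NSC. Their target NEN2, an exonuclease, fell to 2.91, 5.81, 0.172 and 4.42 FPKM in CVP2:NLS:VENUS samples, against 16.1, 24.5, 28.5 and 22.6 FPKM in NSC (log2 fold change -2.70, SE 0.54, adjusted p = 0.00537). Every CVP2:NLS:VENUS value of NEN2 was below every NSC value. NEN1 had 0.436, 0.535, 3.93 and 0.612 FPKM in CVP2:NLS:VENUS samples and 4.09, 3.45, 3.24 and 5.03 FPKM in NSC (log2 fold change -1.26, SE 0.46, adjusted p = 0.0701), and NEN4 had 0.403, 4.46, 0 and 0 FPKM in CVP2:NLS:VENUS samples and 0.984, 1.13, 0.969 and 0.755 FPKM in NSC.

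Genes of the mature sieve element were close to 0. SEOR1, which encodes a filament protein of sieve elements, was at 0.316, 0, 0 and 0 FPKM in CVP2:NLS:VENUS samples and 1.34, 0.1601, 0.767 and 2.48 FPKM in NSC, and its relative SEOR2 was listed at 0 in all 4 CVP2:NLS:VENUS samples and did not exceed 0.473 FPKM in NSC. CALS7, the callose synthase of sieve plates, stayed at or under 0.295 FPKM in CVP2:NLS:VENUS samples and at or under 1.19 FPKM in NSC. RTM1, a lectin-like protein of sieve elements, fell to 0.794, 0, 0 and 0 FPKM in CVP2:NLS:VENUS samples, against 1.56, 1.24, 1.4998 and 2.79 FPKM in NSC (log2 fold change -1.23, SE 0.33, adjusted p = 0.0225). The choline transporter-like gene CHER1 overlapped, at 5.38, 1.95, 0.0299 and 4.95 FPKM in CVP2:NLS:VENUS samples and 3.81, 5.83, 5.48 and 2.97 FPKM in NSC. Of the SMXL genes of phloem formation, SMXL3 was listed at 0 in CVP2:NLS:VENUS replicates 1 to 3 and at 7.08 FPKM in replicate 4, against at most 1.09 FPKM in NSC. SMXL4 had 0.798, 0.136, 2.901 and 0.02404 FPKM in CVP2:NLS:VENUS samples and 2.99, 1.95, 1.45 and 1.12 FPKM in NSC, and SMXL5 had 0.777, 0.0766, 1.18 and 0 FPKM in CVP2:NLS:VENUS samples and 1.05, 0.747, 0.607 and 0.323 FPKM in NSC. Neither separated the groups.

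Over the 19 sieve element and protophloem genes, 12 reached the level for a test, and their median log2 fold change was -1.04, beside -0.33 for all genes. The summed level of the 19 genes was 21.8, 19.0, 16.6 and 53.8 FPKM in CVP2:NLS:VENUS samples and 70.6, 72.8, 61.4 and 56.0 FPKM in NSC. Replicate 4 carried most of NAC045, SMXL3, CVP2 and PAX and came near the NSC, while replicates 1 to 3 lay far below them. Without replicates 1 and 4 the count was 0 higher and 5 lower, beside 1932 higher and 4062 lower of all 18760 genes. RTM1 and 1 other tested gene reached 1 FPKM in NSC samples only, so they could enter the test only as genes higher in NSC. The counts of 2 lower and 0 higher among 12 are near the background of 17.2% lower and 7.6% higher. They do not set these genes, CVP2 among them, apart from all genes. These counts therefore neither bear out the label protophloem nor contradict it, and the samples are called by their reporter below.

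**Figure D2:**
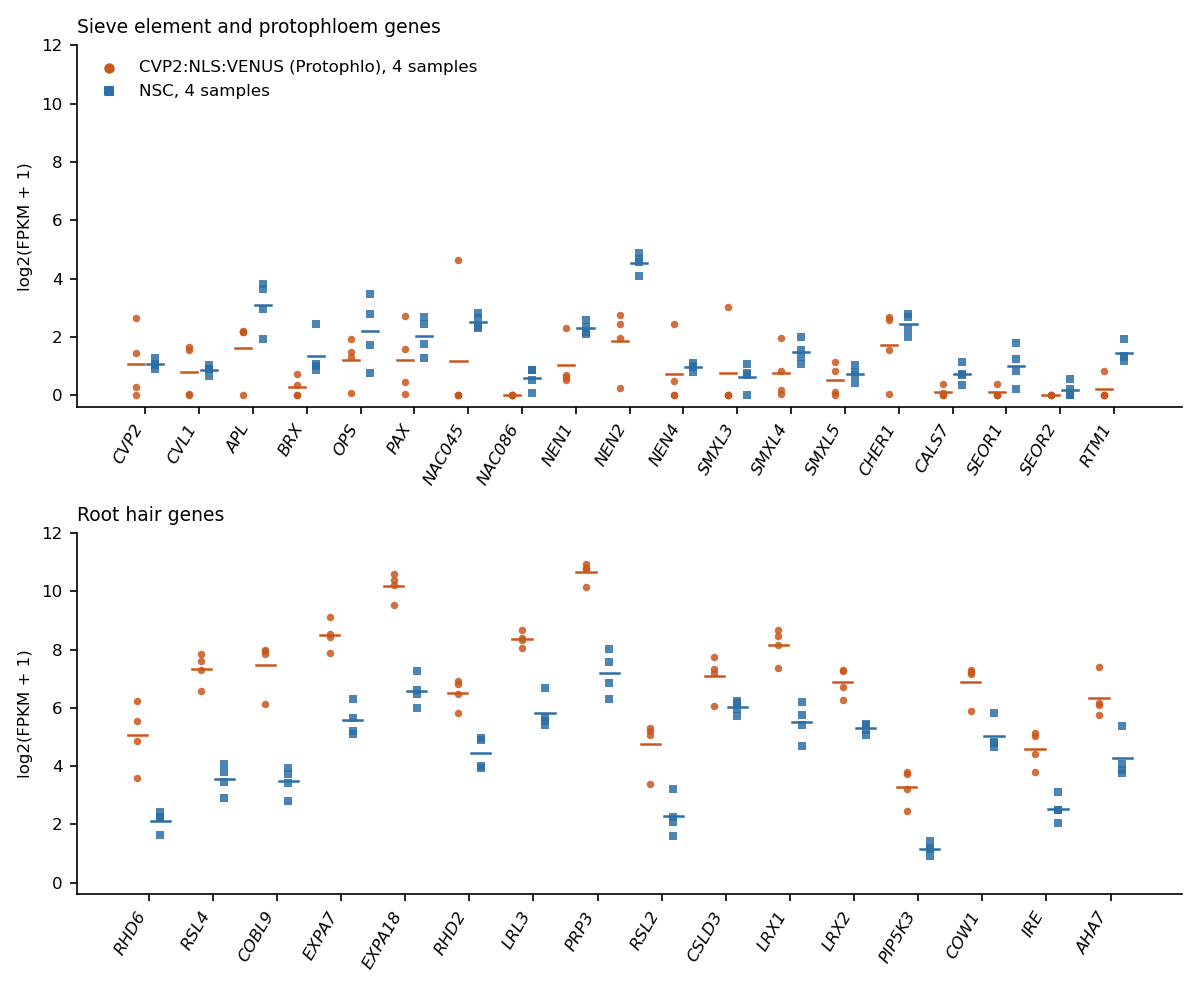
Levels as log2(FPKM + 1) of the 19 sieve element and protophloem genes (top) and of 16 root hair genes (bottom), with orange circles for the 4 CVP2:NLS:VENUS (Protophlo) samples, blue squares for the 4 NSC samples and bars for the means. In the top panel the orange points lie mostly at or under the blue ones, and in the bottom panel they lie above the blue ones for every gene but CSLD3, where the groups overlap.

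Genes of the surrounding phloem network gave 0 higher and 1 lower of 4, beside 7.6% higher and 17.2% lower over all genes. The PEAR and vascular DOF factors are mobile transcription factors made in and around the protophloem. TMO6 fell to 3.93, 0.259, 1.34 and 10.5 FPKM in CVP2:NLS:VENUS samples, against 16.7, 15.6, 11.5 and 22.8 FPKM in NSC (log2 fold change -2.26, SE 0.63, adjusted p = 0.0253). DOF6 had 2.49, 1.19, 0 and 0 FPKM in CVP2:NLS:VENUS samples and 6.101, 1.78, 1.604 and 3.49 FPKM in NSC (log2 fold change -1.23, SE 0.52, adjusted p = 0.112), and HCA2 had 0.04195, 0, 2.13 and 0.0505 FPKM in CVP2:NLS:VENUS samples and 4.43, 3.04, 0.587 and 0.515 FPKM in NSC. The last pair, PEAR1 and PEAR2, did not exceed 0.238 and 1.33 FPKM in CVP2:NLS:VENUS samples, or 2.68 and 1.80 FPKM in NSC. Only TMO6 among these 5 genes passed the threshold, and its highest CVP2:NLS:VENUS value again came from replicate 4.

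CLE peptides and their receptors hold back protophloem differentiation, and this list was mixed. Of 9 genes tested, 0 were higher and 1, CLE40, was lower, beside 7.6% higher and 17.2% lower over all genes. The peptide gene CLE40 was listed at 0 in all 4 CVP2:NLS:VENUS samples and had 1.05, 1.92, 0.894 and 4.18 FPKM in NSC (adjusted p = 0.0144), so that it met the filter through the NSC alone. CLE45, the peptide sensed by the receptor kinase BAM3 in the protophloem, had 1.51, 0.664, 3.49 and 3.73 FPKM in CVP2:NLS:VENUS samples and 1.76, 0.235, 0.585 and 0.285 FPKM in NSC (log2 fold change 0.92, SE 0.45, adjusted p = 0.1604). BAM3 was at 0, 0.542, 0.186 and 16.3 FPKM in CVP2:NLS:VENUS samples and at 6.89, 4.46, 0.966 and 1.93 FPKM in NSC, and MAKR5, which amplifies the CLE45 signal, was at 5.53, 1.88, 2.27 and 26.2 FPKM in CVP2:NLS:VENUS samples and at 27.2, 23.97, 11.2 and 12.6 FPKM in NSC. For both, replicate 4 stood above the other CVP2:NLS:VENUS samples. CRN, a pseudokinase co-receptor, was at 6.12, 5.84, 7.35 and 0.282 FPKM in CVP2:NLS:VENUS samples and at 1.47, 0.875, 1.62 and 0.834 FPKM in NSC (log2 fold change 1.14, SE 0.59, adjusted p = 0.186), higher in replicates 1 to 3 than in every NSC sample. Without replicate 4 the list had 1 gene higher, CRN, and 4 lower (BAM3, RPK2, MAKR5 and CLE40), and with quantile normalization CRN and CLE45 were higher and 0 were lower. Over all 18760 genes 1957 were higher and 3850 lower without replicate 4, and 2313 and 2161 with quantile normalization.

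The remaining members of this list did not pass the threshold. BAM1, a receptor kinase, had 7.02, 3.78, 5.46 and 7.36 FPKM in CVP2:NLS:VENUS samples and 13.97, 14.1, 9.999 and 4.22 FPKM in NSC. BAM2 had 5.46, 0.834, 1.95 and 0.0211 FPKM in CVP2:NLS:VENUS samples and 7.75, 3.31, 4.602 and 4.98 FPKM in NSC, and RPK2, a further receptor kinase, had 0.949, 2.38, 0.516 and 3.55 FPKM in CVP2:NLS:VENUS samples and 6.76, 7.71, 4.96 and 2.67 FPKM in NSC (log2 fold change -1.26, SE 0.48, adjusted p = 0.0799). All 3 receptor genes had log2 fold changes under 0. The peptide gene CLE25 stayed at or under 2.94 FPKM in CVP2:NLS:VENUS samples and 3.07 FPKM in NSC, CLE26 at or under 3.32 FPKM in CVP2:NLS:VENUS samples and 2.20 FPKM in NSC, and the receptor gene CLV2 at or under 1.41 FPKM in CVP2:NLS:VENUS samples and 0.845 FPKM in NSC.

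Companion cell genes gave 0 higher and 2 lower of 6 tested, beside 7.6% higher and 17.2% lower over all genes. SUC2, the sucrose loader of companion cells, was at 3.18, 2.39, 8.78 and 38.2 FPKM in CVP2:NLS:VENUS samples and at 61.1, 65.6, 9.32 and 25.1 FPKM in NSC (log2 fold change -1.92, SE 0.82, adjusted p = 0.114). The proton pump AHA3 fell to 0.282, 0.6405, 1.02 and 0.181 FPKM in CVP2:NLS:VENUS samples, against 16.2, 15.4, 52.8 and 4.41 FPKM in NSC (log2 fold change -3.50, SE 0.63, adjusted p = 0.00332). The sucrose exporter SWEET12 was listed at 0 in all 4 CVP2:NLS:VENUS samples and had 4.71, 5.503, 2.33 and 7.38 FPKM in NSC (adjusted p = 0.00108), and it met the filter through the NSC alone. The summed level of the 10 listed genes was 6.24 to 47.7 FPKM in CVP2:NLS:VENUS samples and 61.5 to 112 FPKM in NSC. In the other types this sum was also under that of the NSC. It was 0.396 to 17.4 FPKM in Xyl, 5.16 to 18.9 FPKM in CEI and 2.97 to 14.7 FPKM in CSC. In QC it was 2.79 to 9.31 FPKM, and in Epi/LRC at or under 1.84 FPKM.

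By contrast, root hair genes were among the strongest signals of the CVP2:NLS:VENUS samples. RSL4, the bHLH factor that sets hair length, rose to 197, 229.7, 94.5 and 157 FPKM in CVP2:NLS:VENUS samples, against 6.48, 10.1, 12.9 and 16.005 FPKM in NSC (log2 fold change 3.77, SE 0.34, adjusted p = 1.12e-04). RHD6, the bHLH factor that starts hair formation, rose to 28.1, 45.7, 10.99 and 74.5 FPKM in CVP2:NLS:VENUS samples, against 4.41, 2.102, 3.75 and 3.64 FPKM in NSC (log2 fold change 2.93, SE 0.53, adjusted p = 0.003297). LRL3, another bHLH factor of hair growth, rose to 339, 409, 268 and 318 FPKM in CVP2:NLS:VENUS samples, against 49.1, 46.3, 41.2 and 102 FPKM in NSC (log2 fold change 2.55, SE 0.29, adjusted p = 3.32e-04). For each of these factors the lowest CVP2:NLS:VENUS value, from replicate 3, was above the highest NSC value.

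Wall and membrane genes of the growing hair were higher too. EXPA18 and EXPA7 are expansins, which loosen the wall. EXPA18 rose to 1340.0, 1175, 737 and 1533 FPKM in CVP2:NLS:VENUS samples, against 87.1, 62.6, 96.9 and 154 FPKM in NSC (log2 fold change 3.59, SE 0.32, adjusted p = 9.88e-05). EXPA7 rose to 369, 552, 238 and 347 FPKM in CVP2:NLS:VENUS samples, against 49.4, 33.6, 35.99 and 78.6 FPKM in NSC (log2 fold change 2.92, SE 0.33, adjusted p = 2.98e-04). The groups were apart for both genes. PRP3, a proline-rich wall protein, rose to 1754, 1955, 1147 and 1795 FPKM in CVP2:NLS:VENUS samples, against 114, 78.4, 189 and 256 FPKM in NSC (log2 fold change 3.49, SE 0.36, adjusted p = 2.03e-04). COBL9, a membrane-anchored protein needed for hair growth, rose to 231, 244, 69.8 and 254 FPKM in CVP2:NLS:VENUS samples, against 9.74, 5.99, 14.5 and 12.1 FPKM in NSC (log2 fold change 4.01, SE 0.43, adjusted p = 2.41e-04). RHD2, the NADPH oxidase of the hair tip, rose to 88.6, 119, 55.9 and 111 FPKM in CVP2:NLS:VENUS samples, against 15.1, 14.2, 28.8 and 30.04 FPKM in NSC (log2 fold change 2.06, SE 0.34, adjusted p = 0.00205). In the list of 16 tested epidermis and root hair genes 8 were higher, beside 7.6% of all genes, and 0 were lower. The median log2 fold change of this list was 1.90.

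The other 8 genes of that list, among them those that choose between hair and non-hair fate, did not pass the threshold. GL2, the homeodomain factor of non-hair cells, was at 0.9502, 4.49, 11.3 and 4.15 FPKM in CVP2:NLS:VENUS samples and at 2.18, 2.84, 3.57 and 5.15 FPKM in NSC. WER, the MYB factor above it, was at 34.9, 12.97, 21.05 and 0.672 FPKM in CVP2:NLS:VENUS samples and at 26.8, 27.2, 22.6 and 12.6 FPKM in NSC, and CPC, which moves to hair cells and blocks WER, was at 23.4, 30.2, 32.5 and 21.3 FPKM in CVP2:NLS:VENUS samples and at 62.9, 77.7, 42.01 and 26.05 FPKM in NSC. In WER it was replicate 4 that lay lowest.

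A further list, taken from the reference annotation after the values had been seen, holds the 18 genes named root hair specific (RHS). All 18 were higher in every CVP2:NLS:VENUS sample than in every NSC sample, beside 10.2% of all tested genes, and 17 passed the threshold. The exception, RHS15, was at 10.7, 11.6, 15.1 and 33.8 FPKM in CVP2:NLS:VENUS samples and at 3.28, 5.84, 6.28 and 10.6 FPKM in NSC (log2 fold change 1.27, SE 0.45, adjusted p = 0.0624). RHS18 had 454, 346, 341 and 369 FPKM in CVP2:NLS:VENUS samples and 5.73, 7.71, 17.6 and 22.9 FPKM in NSC (log2 fold change 4.89, SE 0.38, adjusted p = 6.85e-05), the largest rise of the list, followed by RHS9, RHS7 and RHS4 at log2 fold changes of 4.60, 4.29 and 3.88. The summed level of the 18 genes was 4694, 4064, 2908 and 3842 FPKM in CVP2:NLS:VENUS samples and 319.8, 296, 469.9 and 737 FPKM in NSC, and their median log2 fold change was 2.80. Of 8 genes of hair growth chosen at the same time, 8 passed the threshold with a median of 2.07. These include the bHLH gene RSL2, the leucine-rich extensins LRX1 and LRX2, the lipid-transfer protein gene COW1, the proton pump gene AHA7 (2.09 on the log2 scale) and the lipid kinase gene PIP5K3 (2.13). LRX1 had 354, 403, 164 and 284 FPKM in CVP2:NLS:VENUS samples and 42.02, 24.6, 53.2 and 72.2 FPKM in NSC (log2 fold change 2.65, SE 0.37, adjusted p = 8.89e-04). Their smallest rise was that of CSLD3, a cellulose synthase-like enzyme, at 147, 162, 66.04 and 216 FPKM in CVP2:NLS:VENUS samples and 71.5, 73.8, 51.8 and 61.1 FPKM in NSC (log2 fold change 1.08, SE 0.34, adjusted p = 0.0414), where replicate 3 overlapped the NSC. Its call was lost in 12 of 21 alternatives.

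The choice of samples for the spread decided how many of these calls were made. With all 28 samples in one fit, 2 of the 16 epidermis and root hair genes, 8 of the 18 RHS genes and 1 of the 8 growth genes were past the threshold, where the spread is pooled over all populations. EXPA18 kept its log2 fold change of 3.59 with an adjusted p = 0.139 in that fit. Without CVP2:NLS:VENUS replicates 1 and 4 the counts were 11 of 16, 17 of 18 and 7 of 8.

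That variation between populations is seen in the level of single genes. EXPA18 was at 737 to 1533 FPKM in CVP2:NLS:VENUS samples, 0.800 to 779 FPKM in SCN, 44.1 to 1005 FPKM in CEI, 0.717 to 77.8 FPKM in Epi/LRC, 0.556 to 1.097 FPKM in CSC, 0.520 to 328 FPKM in Xyl, 1.17 to 35.2 FPKM in QC and 62.6 to 154 FPKM in NSC. The CSC samples were at the floor, whereas SCN, CEI and Xyl each held samples with high and samples with low levels. RSL4 had 94.5 to 230 FPKM in CVP2:NLS:VENUS samples, up to 112 FPKM in SCN, 85.8 FPKM in CEI, 70.6 FPKM in Epi/LRC, 66.7 FPKM in Xyl, 27.6 FPKM in QC and 0.259 FPKM in CSC, and 6.48 to 16.005 FPKM in NSC. RHD6, at 11.0 to 74.5 FPKM in CVP2:NLS:VENUS samples, overlapped with QC at 17.3 to 92.5 FPKM, Epi/LRC at 30.3 to 40.3 FPKM and SCN at 0.0763 to 91.0 FPKM. Of 35 root hair genes (the RHS and growth lists with RHD6, RSL1, RSL4, COBL9, EXPA7, EXPA18, RHD2, LRL3 and PRP3), 32 had their highest population mean in CVP2:NLS:VENUS samples, among 8 populations.

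The DNA in front of these genes is shown because hair genes are known to share a short promoter element, the root hair element (RHE), to which RSL4 and its relatives bind. The 300 bases before the annotated gene start were read from the RefSeq annotation of TAIR10.1 for 5 genes with large rises, 5′ to 3′ on the gene's own strand, with any match to the RHE consensus on either strand in capitals.
EXPA18: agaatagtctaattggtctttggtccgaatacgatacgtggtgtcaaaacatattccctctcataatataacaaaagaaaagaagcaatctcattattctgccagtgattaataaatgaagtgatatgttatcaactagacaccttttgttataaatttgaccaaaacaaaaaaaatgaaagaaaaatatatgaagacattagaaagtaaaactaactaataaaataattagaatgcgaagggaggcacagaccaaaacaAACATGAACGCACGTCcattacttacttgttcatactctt
EXPA7: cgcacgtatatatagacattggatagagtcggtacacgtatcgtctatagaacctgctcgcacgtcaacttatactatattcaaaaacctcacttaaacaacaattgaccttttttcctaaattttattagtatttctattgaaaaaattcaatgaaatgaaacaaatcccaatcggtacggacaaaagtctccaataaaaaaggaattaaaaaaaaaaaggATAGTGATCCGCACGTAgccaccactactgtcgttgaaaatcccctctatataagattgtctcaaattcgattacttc
RHS18: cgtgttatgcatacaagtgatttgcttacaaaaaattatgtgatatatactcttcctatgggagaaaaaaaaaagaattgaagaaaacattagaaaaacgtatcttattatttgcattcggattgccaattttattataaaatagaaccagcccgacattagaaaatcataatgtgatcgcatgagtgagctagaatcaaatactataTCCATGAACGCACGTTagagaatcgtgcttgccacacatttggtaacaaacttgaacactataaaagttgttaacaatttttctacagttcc
RHS7: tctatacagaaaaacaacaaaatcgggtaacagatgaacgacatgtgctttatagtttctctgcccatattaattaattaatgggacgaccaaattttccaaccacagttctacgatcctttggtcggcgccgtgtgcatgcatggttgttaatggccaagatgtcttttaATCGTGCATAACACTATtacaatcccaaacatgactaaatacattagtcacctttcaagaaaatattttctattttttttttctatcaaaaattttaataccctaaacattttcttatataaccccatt
COBL9: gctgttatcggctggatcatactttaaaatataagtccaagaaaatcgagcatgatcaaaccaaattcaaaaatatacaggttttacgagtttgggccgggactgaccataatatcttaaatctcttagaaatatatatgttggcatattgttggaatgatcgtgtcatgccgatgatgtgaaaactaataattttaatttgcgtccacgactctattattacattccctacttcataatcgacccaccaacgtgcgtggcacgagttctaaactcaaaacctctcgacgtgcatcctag
The windows are chr1:23331263-23331562 (plus strand) for EXPA18, chr1:4276205-4276504 (plus) for EXPA7, chr5:7426010-7426309 (plus) for RHS18, chr1:20504601-20504900 (plus) for RHS7, which is also named PRP1, and chr5:19974531-19974830 (minus) for COBL9. The matches in EXPA18, EXPA7 and RHS18 ran in the direction of the gene, 40, 78 and 92 bases before its start, that in RHS7 ran in the opposite direction, and COBL9 had none. Over the 35 root hair genes 13 windows held a match, 37.1%, beside 251 of 27443 windows of all nuclear protein-coding genes, 0.915%, and 0 of the 19 sieve element windows. Because the element is known from hair genes, its higher share among them is no independent evidence. Such a match is a description of letters and was not tied to the levels by any test.

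Among the named genes with the largest rises, several others are wall or surface proteins. FLA6, a fasciclin-like arabinogalactan protein, rose to 864, 753, 466 and 218 FPKM in CVP2:NLS:VENUS samples, against 13.1, 6.37, 44.4 and 50.3 FPKM in NSC (log2 fold change 4.52, SE 0.65, adjusted p = 0.00104). EXT12, an extensin-like protein, rose to 973, 1012, 625 and 597 FPKM in CVP2:NLS:VENUS samples, against 26.5, 23.1, 40.1 and 66.7 FPKM in NSC (log2 fold change 4.40, SE 0.34, adjusted p = 6.85e-05). XTH13, a xyloglucan-modifying enzyme, rose to 375, 223, 262 and 134 FPKM in CVP2:NLS:VENUS samples, against 3.503, 5.49, 13.1 and 15.3 FPKM in NSC (log2 fold change 4.69, SE 0.45, adjusted p = 1.53e-04). PRP1, listed above as RHS7, had 1394, 1218, 831 and 1114 FPKM in CVP2:NLS:VENUS samples and 27.2, 25.1, 116 and 124 FPKM in NSC. The groups were far apart for each of the 4 genes.

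The rest of the 12 largest rises with a symbol were more varied. The glutathione transferase gene GSTU14 rose to 112, 263, 154 and 264 FPKM in CVP2:NLS:VENUS samples, against 9.18, 10.5, 1.03 and 6.01 FPKM in NSC (log2 fold change 4.87, SE 0.53, adjusted p = 2.59e-04). RAP2.11, an ethylene response factor family gene of the potassium response, had 229, 248, 121 and 189.6 FPKM in CVP2:NLS:VENUS samples and 5.62, 5.49, 6.41 and 7.44 FPKM in NSC (log2 fold change 4.73, SE 0.27, adjusted p = 1.31e-05). The tetraspanin gene TET12 (log2 fold change 4.30), the methyl esterase gene MES15, which is RHS9 (4.60), the QWRF motif gene QWRF7 (4.66), the P-type cyclin gene CYCP4;3 (4.28), RHS18 and the small nucleolar RNA gene SNOR37-2 (4.81) complete this set. SNOR37-2 was listed at 0 in 3 of the 4 NSC samples. Without a symbol, AT5G24879 had 247, 320.2, 39.8 and 404 FPKM in CVP2:NLS:VENUS samples and 7.02, 0, 0 and 9.31 FPKM in NSC, and the other 3 identifiers of this kind, ATCG00390, ATCG00620 and ATCG00080, belong to the plastid genome.

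Aquaporins, the water channels of the plasma membrane and the vacuole, were partly higher. TIP4;1 rose to 405, 582, 369 and 365 FPKM in CVP2:NLS:VENUS samples, against 62.1, 52.8, 65.7 and 83.3 FPKM in NSC (log2 fold change 2.68, SE 0.23, adjusted p = 8.85e-05), and PIP2;7 rose to 1645, 2112, 1708 and 1273 FPKM in CVP2:NLS:VENUS samples, against 869, 756, 538 and 691 FPKM in NSC (log2 fold change 1.24, SE 0.25, adjusted p = 0.00631). TIP2;2 (1.56) and PIP1;2 (1.02, on the log2 scale) also passed, so that 4 of 10 were higher and 0 lower, beside 7.6% higher over all genes. The call of PIP1;2 was lost in 5 of 21 alternatives. PIP2;1 and PIP2;2 had log2 fold changes of -0.41 and -0.30 and did not pass.

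**Figure D3:**
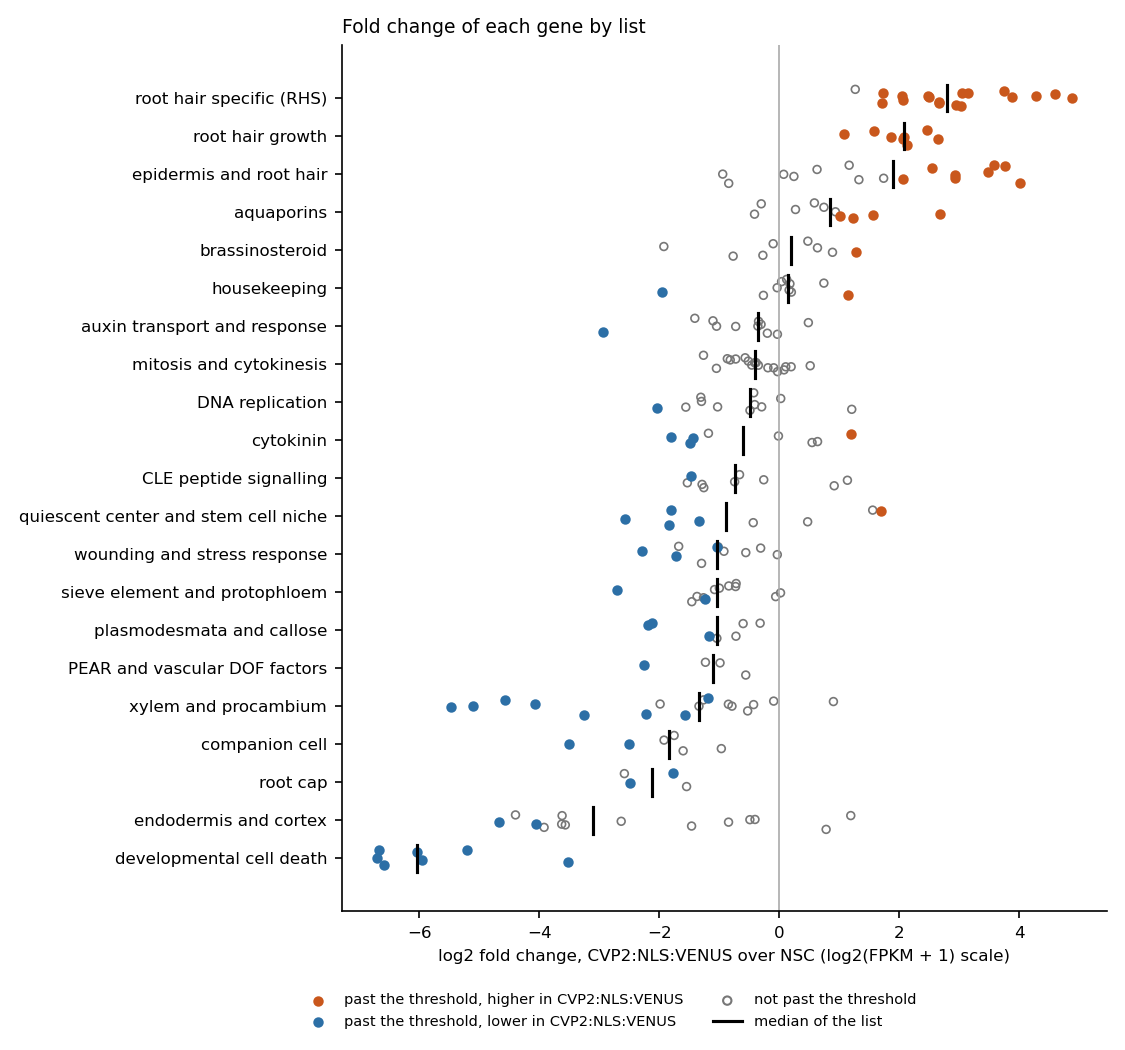
Log2 fold change of each tested gene, CVP2:NLS:VENUS over NSC, by list (x axis, log2(FPKM + 1) scale), with filled points for genes past the threshold and a black bar for each list's median. The root hair lists are at the top with medians of 2.80, 2.07 and 1.90, and developmental cell death is at the bottom with a median of -6.04.

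Genes of the endodermis set CVP2:NLS:VENUS replicate 4 apart. CASP1, which builds the Casparian strip of the endodermis, was at 6.55, 5.35, 2.36 and 3040.1 FPKM in CVP2:NLS:VENUS samples and at 444, 468, 586 and 788 FPKM in NSC (log2 fold change -4.40, SE 1.79, adjusted p = 0.0982). Replicates 1 to 3 were far below the NSC and replicate 4 was far above them. PER64, a peroxidase of the same strip, was at 1.11, 5.41, 5.63 and 1717 FPKM in CVP2:NLS:VENUS samples and at 199, 197, 258 and 342 FPKM in NSC. CASP2 to CASP4, ESB1 and GSO1 had the same split, with replicate 4 above every other sample. The summed level of the 16 endodermis and cortex genes was 56.9, 50.4 and 102 FPKM in replicates 1 to 3 and 8206 FPKM in replicate 4, against 1209 to 2179 FPKM in NSC.

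The count for this list accordingly turned on replicate 4. With all samples 2 of 14 genes were lower and 0 higher, beside 17.2% lower and 7.6% higher over all genes. Without replicate 4 there were 9 lower and 2 higher, beside 3850 lower and 1957 higher of all 18760 genes. MYB36, the factor that turns on the Casparian strip genes, was lower in all 4, at 0.856, 0.425, 2.65 and 36.2 FPKM in CVP2:NLS:VENUS samples and 68.9, 79.97, 64.9 and 72.5 FPKM in NSC (log2 fold change -4.05, SE 0.86, adjusted p = 0.00724). CASP5 (-4.68) was the other lower gene, and its call was lost in 6 of 21 alternatives. JKD, a ground tissue factor, was at 20.8, 13.9, 29.7 and 0.632 FPKM in CVP2:NLS:VENUS samples and at 3.52, 3.14, 4.49 and 4.81 FPKM in NSC, and the related NUC was at 14.2, 7.77, 24.5 and 3.201 FPKM in CVP2:NLS:VENUS samples and at 6.28, 6.65, 5.93 and 3.22 FPKM in NSC. Both were above the NSC in replicates 1 to 3 and below them in replicate 4. For the root hair genes replicate 4 did not stand apart, as its RHS sum of 3842 FPKM lay within the range of the other CVP2:NLS:VENUS samples.

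Mitotic genes set replicate 1 apart in turn. CYCB1;2, a cyclin of mitosis, was at 106, 6.25, 0.174 and 0.232 FPKM in CVP2:NLS:VENUS samples and at 6.12, 6.92, 7.27 and 9.06 FPKM in NSC, and KNOLLE, the syntaxin of the cell plate, was at 36.3, 1.83, 0 and 0.486 FPKM in CVP2:NLS:VENUS samples and at 6.58, 5.8996, 5.49 and 7.39 FPKM in NSC. The summed level of 18 mitosis and cytokinesis genes was 368 FPKM in replicate 1 and 26.7, 17.1 and 22.3 FPKM in replicates 2 to 4, against 50.5 to 66.9 FPKM in NSC. With all samples 0 of 18 genes passed in either direction in limma (0 at an unadjusted p under 0.05), and without replicate 1 there were 8 lower and 0 higher. Over all 18760 genes 3306 were lower and 1332 higher without replicate 1. Genes of DNA replication gave 1 lower of 11, MCM3, a subunit of the replicative helicase, at 0.358, 0.162, 0.188 and 1.47 FPKM in CVP2:NLS:VENUS samples and 11.9, 9.63, 4.05 and 0.8799 FPKM in NSC (log2 fold change -2.03, SE 0.61, adjusted p = 0.0341), and its call was lost in 8 of 20 alternatives. NSC replicate 4 lay below CVP2:NLS:VENUS replicate 4 for this gene. The 1 lower gene of 11 stands beside 17.2% lower over all genes. Without replicate 4 this list had 4 lower, beside 3850 of all 18760 genes. Without replicate 1 it had 0 lower, and with quantile normalization 1 was higher and 0 were lower.

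**Figure D4:**
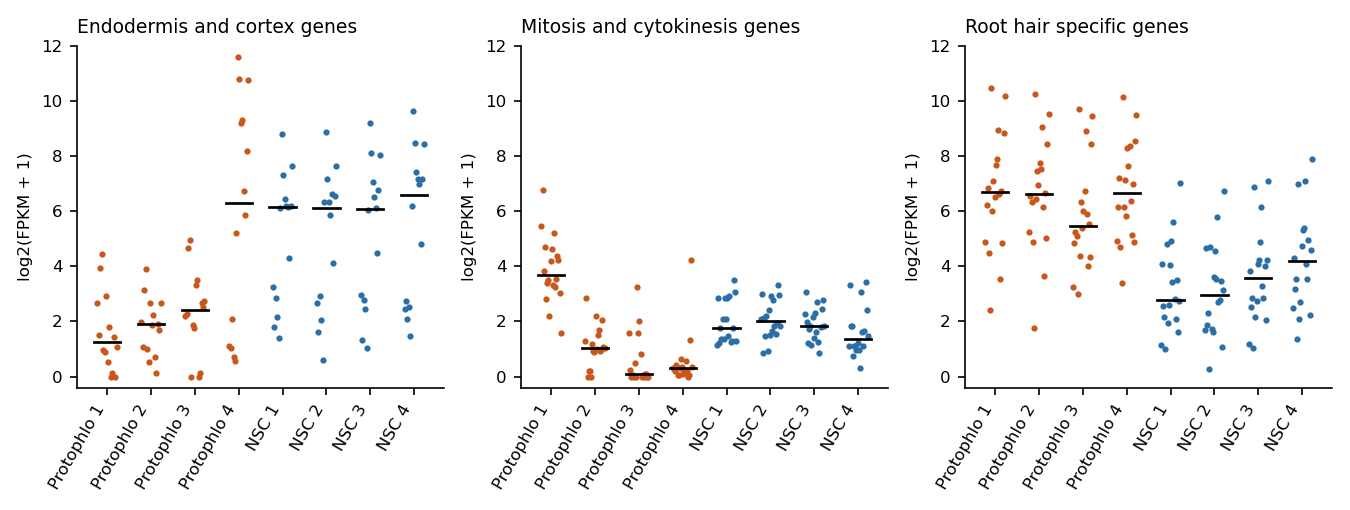
Levels as log2(FPKM + 1) of the tested genes of 3 lists in each of the 8 samples, 1 point for each gene and a black bar for the median, with CVP2:NLS:VENUS (Protophlo) samples in orange and NSC in blue. Replicate 4 alone of the orange samples reaches the blue level for endodermis genes, replicate 1 alone is high for mitotic genes, and all 4 are high for root hair specific genes.

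Genes of maturing xylem were lower in the CVP2:NLS:VENUS samples. XCP2 and XCP1 are the proteases that clear the dying vessel. XCP2 fell to 63.2, 4.24, 1.58 and 0.0626 FPKM in CVP2:NLS:VENUS samples, against 345, 386, 107 and 245 FPKM in NSC (log2 fold change -5.47, SE 1.05, adjusted p = 0.00459). XCP1 fell to 40.3, 5.16, 3.42 and 0.0609 FPKM in CVP2:NLS:VENUS samples, against 291, 343, 85.8 and 194 FPKM in NSC (log2 fold change -5.11, SE 0.93, adjusted p = 0.00345). For both, replicate 1 was closest to the NSC without reaching them. Of the cellulose synthases of the secondary wall, CESA8 fell to 3.29, 0.0212, 0 and 0.0225 FPKM in CVP2:NLS:VENUS samples, against 67.9, 64.9, 9.53 and 29.2 FPKM in NSC (log2 fold change -4.57, SE 0.70, adjusted p = 0.00149), and CESA7 fell to 4.801, 0.734, 0.628 and 0 FPKM in CVP2:NLS:VENUS samples, against 72.9, 75.8, 8.16 and 23.8 FPKM in NSC (log2 fold change -4.07, SE 0.76, adjusted p = 0.00403). In the whole list 8 of 17 were lower and 0 higher, beside 17.2% lower over all genes. The calls of the vessel factors VND7 and VND6 were lost in 13 of 21 and 11 of 20 alternatives, that of TMO5 in 7 of 21, and VND6 reached 1 FPKM in NSC samples only.

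A list of developmental cell death genes, chosen after the values had been seen, was lower throughout. These genes clear the contents of xylem vessels and lateral root cap cells as they die. BFN1, a nuclease, fell to 6.06, 1.57, 0.0599 and 0 FPKM in CVP2:NLS:VENUS samples, against 126, 150.2, 291 and 415 FPKM in NSC (log2 fold change -6.71, SE 0.64, adjusted p = 1.38e-04). MC9, a metacaspase, fell to 57.3, 46.6, 0.184 and 1.44 FPKM in CVP2:NLS:VENUS samples, against 708, 670.4, 1159.6 and 1539.7 FPKM in NSC (log2 fold change -6.67, SE 1.15, adjusted p = 0.002697). RNS3, a ribonuclease, fell to 29.9, 12.8, 0.305 and 0.244 FPKM in CVP2:NLS:VENUS samples, against 364, 327, 619.6 and 809 FPKM in NSC (log2 fold change -6.59, SE 0.96, adjusted p = 0.00113). Replicates 1 and 2 were above replicates 3 and 4 in all 3 genes and still below every NSC value. EXI1 had a log2 fold change of -6.04. All 7 genes that could be tested were lower, with a median log2 fold change of -6.04, and their number did not change without replicates 1 and 4 or in the fit of 28 samples. The low level was not particular to these samples. Against the other stem cell types 0 of the 7 passed, with a median of -0.69. The list summed to 15.6 to 118 FPKM in CVP2:NLS:VENUS samples and 1608 to 3524 FPKM in NSC. It summed to 8.34 to 47.9 FPKM in Xyl, 3.59 to 325 FPKM in CEI and 17.7 to 297 FPKM in Epi/LRC. In CSC it was 12.8 to 337 FPKM and in QC 109 to 738 FPKM.

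Root cap genes gave 2 lower of 4, beside 17.2% of all genes. BRN1, a NAC factor of root cap maturation, fell to 73.95, 30.02, 21.1 and 52.2 FPKM in CVP2:NLS:VENUS samples, against 253, 181, 289 and 197 FPKM in NSC, and its relative BRN2 fell to 61.6, 42.05, 23.4 and 79.8 FPKM in CVP2:NLS:VENUS samples, against 169, 104, 265 and 149 FPKM in NSC. Their log2 fold changes were -2.48 (adjusted p = 0.001203) and -1.77 (adjusted p = 0.00957). The cellulase CEL5 of cap cell shedding was at 131, 91.3, 102 and 1.75 FPKM in CVP2:NLS:VENUS samples and at 228, 139.8, 367 and 371 FPKM in NSC, without overlap but short of the threshold (log2 fold change -2.58, SE 1.07, adjusted p = 0.104). In the fit of 28 samples 0 of the 4 cap genes passed.

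The largest falls with a symbol were BGLU35 and BGLU34, beta-glucosidases of the root that act as myrosinases, which split glucosinolates. BGLU35 fell to 114, 128, 1.27 and 3.86 FPKM in CVP2:NLS:VENUS samples, against 2625, 2229.8, 4762 and 6042 FPKM in NSC (log2 fold change -7.48, SE 1.21, adjusted p = 0.00195). BGLU34 fell to 187, 231, 2.41 and 12.4 FPKM in CVP2:NLS:VENUS samples, against 3103, 2619, 5743 and 7129 FPKM in NSC (log2 fold change -6.83, SE 1.19, adjusted p = 0.00283). Replicates 1 and 2 were well above replicates 3 and 4 in both, which are close relatives whose reads could be divided between them. The metallothionein gene MT1B was at or under 0.0184 FPKM in CVP2:NLS:VENUS samples and at 102, 87.4, 131 and 136 FPKM in NSC, with adjusted p = 2.27e-06. It was at 6.70, 30.3 and 4.17 FPKM in CEI. Outside NSC and CEI it exceeded 0.0184 FPKM only in Epi/LRC replicate 3 (7.46) and Xyl replicates 2 (13.2) and 4 (9.41). Its level thus largely followed the split of NSC with CEI from the other samples.

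The others were enzymes and 1 regulator. ABR1, an ethylene response factor family repressor, fell to 0.0413, 2.998, 0 and 25.2 FPKM in CVP2:NLS:VENUS samples, against 177, 219.8, 116 and 175 FPKM in NSC (log2 fold change -5.71, SE 0.89, adjusted p = 0.00163). RNS1, a ribonuclease, fell to 0, 0, 0 and 1.87 FPKM in CVP2:NLS:VENUS samples, against 54.6, 93.97, 47.4 and 73.9 FPKM in NSC (log2 fold change -5.67, SE 0.44, adjusted p = 6.85e-05). The acyltransferase gene PMAT1 (-6.34), the berberine bridge family gene MEE23 (-5.79), the methyltransferase gene HMT3 (-5.55) and the cellulase gene CEL3 (-5.54, all on the log2 scale) were also among the 12. Against the other stem cell types no gene of these 12 passed the threshold. Without a symbol the ribosomal RNA genes AT2G01020 and AT3G41979, which have the same value in every sample, AT2G01010 and AT3G31161 fell most, with log2 fold changes of -8.74, -8.74, -8.65 and -6.47, and all 4 show the split between NSC with CEI and the other 21 samples.

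Stem cell niche genes gave a mixed count, with 1 of 8 higher and 4 lower on the deposited scale, beside 7.6% higher and 17.2% lower over all genes. With quantile normalization 3 were higher and 2 lower. The 1 higher gene was AGL42, at 6.87, 5.21, 10.3 and 9.21 FPKM in CVP2:NLS:VENUS samples and at 1.05, 1.98, 1.35 and 2.603 FPKM in NSC. The NSC were sorted as cells without the AGL42 reporter, so its low level there follows from the sort and is no separate result. PLT2, an AP2-type factor that maintains the niche, fell to 0.118, 1.87, 0.232 and 0.7802 FPKM in CVP2:NLS:VENUS samples, against 2.93, 6.62, 4.41 and 5.39 FPKM in NSC, and PLT3 fell to 10.9, 8.7005, 9.095 and 1.06 FPKM in CVP2:NLS:VENUS samples, against 23.8, 24.2, 30.9 and 18.2 FPKM in NSC. ERF115, a factor of stem cell replenishment, fell to 0, 0, 1.85 and 0 FPKM in CVP2:NLS:VENUS samples, against 8.996, 12.9, 2.62 and 5.93 FPKM in NSC (log2 fold change -2.56, SE 0.53, adjusted p = 0.00671). WOX5, the QC homeobox gene, was the last lower gene at -1.34 (adjusted p = 0.0591), and its call was lost in 15 of 20 alternatives.

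Of the hormone lists, auxin had 1 of 11 genes past the threshold, brassinosteroid 1 of 8 and cytokinin 4 of 8, beside 24.8% of all genes. ARF5 (MONOPTEROS), the auxin response factor of vascular and root initiation, fell to 8.04, 6.16, 2.28 and 9.31 FPKM in CVP2:NLS:VENUS samples, against 49.2, 67.4, 40.9 and 52.6 FPKM in NSC (log2 fold change -2.94, SE 0.38, adjusted p = 5.81e-04). AHK3, a cytokinin receptor, fell to 7.59, 10.95, 5.57 and 8.98 FPKM in CVP2:NLS:VENUS samples, against 28.5, 40.8, 23.04 and 32.7 FPKM in NSC (log2 fold change -1.80, SE 0.30, adjusted p = 0.00221), and the cytokinin response regulator ARR7 (-1.44) and the cytokinin-activating enzyme LOG4 (-1.49) were lower too. The call of LOG4 was lost in 10 of 20 alternatives, and ARR7 reached 1 FPKM in NSC samples only. The response regulator ARR15, the only cytokinin gene that was higher, was at 1.91, 2.94, 1.69 and 0 FPKM in CVP2:NLS:VENUS samples and at or under 0.119 FPKM in NSC, and its call was lost in 14 of 20 alternatives. BRL3, a brassinosteroid receptor of the vasculature, rose to 8.58, 9.57, 6.09 and 7.05 FPKM in CVP2:NLS:VENUS samples, against 1.38, 1.83, 5.64 and 2.73 FPKM in NSC (log2 fold change 1.28, SE 0.42, adjusted p = 0.0478), and its call was lost in 10 of 21 alternatives.

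Callose and plasmodesmata genes, which control the passage between phloem cells, gave 3 lower of 7, beside 17.2% of all genes, and 2 of the 3, PDLP1 and CALS8, reached 1 FPKM in NSC samples only. CALS3, a callose synthase of plasmodesmata, fell to 2.29, 1.41, 0.344 and 2.296 FPKM in CVP2:NLS:VENUS samples, against 11.1, 14.3, 8.47 and 7.496 FPKM in NSC (log2 fold change -2.18, SE 0.43, adjusted p = 0.00489). The plasmodesmal receptor-like gene PDLP1 fell to 0.226, 0.192, 0 and 0 FPKM in CVP2:NLS:VENUS samples, against 3.83, 5.45, 1.87 and 4.92 FPKM in NSC (log2 fold change -2.13, SE 0.36, adjusted p = 0.00229), and CALS8 was the third (-1.18). Of 10 wounding and stress genes 3 were lower, with ZAT10 at -1.72, HSP70-4 at -2.29 and JAZ1 at -1.04 on the log2 scale, beside 17.2% of all genes, and the call of JAZ1 was lost in 10 of 21 alternatives. That list had 7 lower without replicate 4, in which the stress factor WRKY40 stood at 727 FPKM, against 94.6 to 188 FPKM in the other CVP2:NLS:VENUS samples and 341 to 469 FPKM in NSC. Over all 18760 genes 3850 were lower without replicate 4.

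Of 10 genes often used as constant references, 8 did not pass. The actin gene ACT8 rose to 1257, 1293, 1002 and 1371 FPKM in CVP2:NLS:VENUS samples, against 595, 549, 493 and 582 FPKM in NSC (log2 fold change 1.14, SE 0.21, adjusted p = 0.00357), and the ubiquitin gene UBQ10 fell to 662, 788, 415 and 509 FPKM in CVP2:NLS:VENUS samples, against 1915, 2354, 2232 and 2519 FPKM in NSC (log2 fold change -1.96, SE 0.26, adjusted p = 7.21e-04). Among 14 cytosolic ribosomal protein genes 0 passed in limma (0 at an unadjusted p under 0.05), with a median log2 fold change of 0.09 and 0.33 for the one at the highest level, AT5G57290, and of 2 nuclear photosynthesis genes tested, LHCB1.3 and LHCA1, 0 passed (0 at an unadjusted p under 0.05).

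Genes of the plastid genome took a larger share of the CVP2:NLS:VENUS samples than of the NSC, and this was not particular to them. The share was 0.642 to 1.74% in CVP2:NLS:VENUS samples and 0.140 to 0.254% in NSC. It was 0.220 to 0.674% in Xyl, 0.276 to 2.32% in Epi/LRC and 0.456 to 2.08% in QC. In CEI it was 0.542 to 2.00%, in SCN 0.550 to 2.42% and in CSC 0.692 to 3.43%. Against the other stem cell types 3 plastid genes were higher and 14 lower, beside 15.7% higher and 25.9% lower over all genes. Without the CEI samples 2 plastid genes were higher and 2 lower, so most of the lower calls rested on CEI. Of 91 tested plastid genes 53 were higher than in NSC and 20 lower, beside 7.6% higher and 17.2% lower over all genes. Of 69 mitochondrial genes 11 were higher and 24 lower, or 19 and 15 with quantile normalization. Of the lower genes, 19 plastid and 23 mitochondrial ones reached 1 FPKM in NSC samples only. Beside the 3 plastid genes named above, the largest change in that genome was the fall of ATCG01180 (-4.83 on the log2 scale), and in the mitochondrial genome ATMG01380 rose (4.44) and ATMG01400 (-3.94), ATMG01040 (-3.55) and ATMG00600 (-2.93) fell. Plastid genome genes made up 1.03% ± 0.490 of the summed FPKM in CVP2:NLS:VENUS samples and 0.192% ± 0.0551 in NSC (SD, n = 4 each; exact permutation test, two-sided, p = 0.0286). Mitochondrial genome genes made up 2.15% ± 1.31 in CVP2:NLS:VENUS samples and 0.515% ± 0.0852 in NSC (SD, n = 4 each; exact permutation test, two-sided, p = 0.0857). Replicate 1, at 0.511%, lay within the range of the NSC for the mitochondrial share. Within that genome ATMG00020 was at 0, 17561, 23452 and 12079.7 FPKM in CVP2:NLS:VENUS samples and at 2919, 2770.2, 3565 and 3523 FPKM in NSC. It was listed at 0 in replicate 1 and had the highest mean of all in the CVP2:NLS:VENUS samples, and its log2 fold change was -1.09 with replicate 1 and 2.43 without it (adjusted p = 0.00375).

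Next in mean level came cell surface and lipid-transfer genes. AGP2, an arabinogalactan protein gene, was at 6155, 7287, 4559.6 and 5267 FPKM in CVP2:NLS:VENUS samples and at 5584, 4647, 8233 and 7838 FPKM in NSC (log2 fold change -0.16, SE 0.34, adjusted p = 0.763). AGP24, another of this family, rose to 4428, 6354, 3582 and 3593 FPKM in CVP2:NLS:VENUS samples, against 2036, 1575, 1380.1 and 2218 FPKM in NSC (log2 fold change 1.301, SE 0.31, adjusted p = 0.0118). The lipid-transfer family genes AT5G46890 and AT5G46900, which neighbour each other and may share reads, had log2 fold changes of 1.45 and 1.22 and passed the threshold as well.

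Finally, the CVP2:NLS:VENUS samples were set against the mean of the CEI, Epi/LRC, CSC, Xyl and QC samples, over the same genes and by the same rule. In this comparison 41.6% of the genes differed: 2943 genes, 15.7%, were higher and 4861, 25.9%, were lower, and with size factors 4629 were higher and 3717 lower. The same CVP2:NLS:VENUS samples serve in both comparisons, so the values are given side by side and not as independent evidence. Root hair genes were higher here too, with 18 of 18 RHS genes, 7 of 8 growth genes and 9 of 16 epidermis and root hair genes, and without the CEI samples these counts were the same. Without CVP2:NLS:VENUS replicates 1 and 4 they were 16, 4 and 6.

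All 4 CVP2:NLS:VENUS values were above all 16 values of the other types for 442 genes, 2.36% of those tested. The largest rises among them begin with AT5G57625, a gene of the CAP protein superfamily, at 1417, 1235, 1357 and 1547 FPKM in CVP2:NLS:VENUS samples (log2 fold change 6.77 against the other types). The arabinogalactan gene AGP3 followed at 2104, 2461, 1459.8 and 1626 FPKM in CVP2:NLS:VENUS samples (6.41), and ADF8, an actin-depolymerizing factor, at 473, 578, 281 and 329.6 FPKM in CVP2:NLS:VENUS samples (5.67). EXPA7 (5.49), AT2G47530 of the Ole e 1 and extensin family (5.38), LRL3 (5.33) and OFP17, an ovate family protein gene (5.15), came next. Each of these named genes was also past the threshold against NSC, at log2 fold changes between 1.47 and 3.33.

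Lists of division and of water transport also differed from the other types. All 18 mitosis and cytokinesis genes were lower than in the other types, with a median log2 fold change of -2.87, and 17 were lower with size factors. For DNA replication 9 of 11 were lower, with a median of -3.10. All 10 aquaporin genes were higher, with a median of 3.86 and without a change in number under size factors or without replicates 1 and 4. Of the 12 sieve element genes 0 were higher and 3 were lower than in the other types, and with size factors 1 was higher and 2 were lower. Companion cell and DOF genes were not lower than in the other types. Of 6 companion cell genes 1 was higher and 0 were lower, with a median log2 fold change of 0.43. With size factors 3 of them were higher, and without replicate 4 0 were. Of 4 DOF genes 0 passed in either direction, with a median of 0.23. CVP2 was at 0 to 5.22 FPKM in CVP2:NLS:VENUS samples and at 10.5 to 26.5 FPKM in Xyl, and of the 19 sieve element genes 1 had its highest mean in the CVP2:NLS:VENUS samples among the 5 other types, these samples and NSC.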

How the data were processed

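Expression was measured by RNA sequencing of sorted root protoplasts, amplified from low input, in 28 samples of 8 populations, and 4 CVP2:NLS:VENUS and 4 NSC samples are compared here. The deposited values are FPKM, which the authors made from single-end reads of 100 bp. The submitters' processing notes name TopHat2 2.0.13, Cufflinks 2.1.1 and the build TAIR10. Read counts were not among these values, so no count model was used. Samples were grouped by their labels. The columns of the CEI samples give only an initial and a replicate number and were matched to CYCD6:GFP by elimination. The replicates are described as biological, each grown from its own batch of seed.

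Genes with at least 1 FPKM in at least 3 of the 8 samples were kept (18760 of 33201), log2(FPKM + 1) was fitted in limma 3.58.1 (R 4.3.3) with a mean-dependent prior over the 8 samples, and p-values were adjusted by Benjamini-Hochberg over all 18760 genes. The threshold was an adjusted p under 0.06 with a fold above 2. CVP2:NLS:VENUS samples were also fitted with the 16 CEI, Epi/LRC, CSC, Xyl and QC samples. Single values per sample were compared by an exact permutation test. Promoters of 300 bases were read from the RefSeq genome TAIR10.1, and 32489 of the 33201 identifiers had a locus there. The fit was also run on simulated data, with the spread of each gene taken from the CVP2:NLS:VENUS samples for every group. A difference in spread between the groups was therefore not covered.

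Named genes are all members of the sieve element, DOF and CLE lists, up to 4 members past the threshold of each other list or else its most highly expressed member, the 12 largest rises and the 12 largest falls with a symbol and 4 each without one (past the threshold and without overlap), the 5 genes with the highest mean in CVP2:NLS:VENUS samples, and the 8 largest rises above every sample of the other types. Other genes named were chosen after their values were seen. One gene that this rule selects is not reported here. The members and lists were chosen with earlier results of these data known, and the root hair specific, root hair growth and developmental cell death lists were added after values were seen. Alternatives covered the pseudocount, the filter, the scaling, the samples fitted, sample weights, the replicate block, the p limit, and each replicate left out. Leaving out CVP2:NLS:VENUS replicates 1 and 4 together, or CEI from the other types, was chosen after seeing the data. SCN samples entered no test because they hold the other stem cell types.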

Additional observations from a re-analysis of the deposited data

Results flagged for a closer look

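Summed list levels, the number of genes at 1 FPKM or more and the plastid and mitochondrial shares were examined for a sample far from the rest of its group, in 56 sets of 4 samples, of which chance picks about 1 in 20, and 6 were found, all in summed lists. Each had a gap to its nearest neighbour above 0.829 of the group's range. The sieve element and protophloem genes summed to 53.8 FPKM in CVP2:NLS:VENUS replicate 4 and to 16.6 to 21.8 FPKM in the other 3 samples. The endodermis and cortex genes summed to 8206 FPKM in CVP2:NLS:VENUS replicate 4 and to 50.4 to 102 FPKM in the other 3.

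The mitosis and cytokinesis genes summed to 368 FPKM in CVP2:NLS:VENUS replicate 1 and to 17.1 to 26.7 FPKM in the other 3, and the root cap genes to 297 FPKM in that replicate and to 144 to 167 FPKM in the others. The root hair growth genes summed to 444 FPKM in CVP2:NLS:VENUS replicate 3, the lowest, and to 946 to 1007 FPKM in the others. The nuclear photosynthesis genes summed to 9.35 FPKM in NSC replicate 4 and to 3.54 to 4.44 FPKM in the other NSC samples.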

How the results depend on the processing

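The number of higher genes against NSC was 1426, and it was 2313 with quantile normalization and 869 with all 28 samples in one fit; against the other stem cell types it was 2943, and 4629 with size factors. The difference in genes at 1 FPKM or more was -1825, and -1859.75 after rescaling to TPM (exact permutation p = 0.0571); leaving out 1 replicate gave -2218 to -1068, and 0.598 to 0.965 percentage points for the plastid share, where 0.0571 is the smallest p that 3 against 4 samples allow. Without 1 replicate 1141 to 1957 genes were higher and 2268 to 3850 lower. Of 140 named genes 117 passed the threshold, and 46 of these lost it in the fit of 28 samples, all still above 2-fold, while 23 lost it in at least 1 other alternative. Signs changed for 5 genes, none past the threshold with all samples. CVP2 (0.02) moved to -0.68 with a pseudocount of 0.1, -0.19 with sample weights, -0.93 without replicates 1 and 4, and -0.49 to 0.39 without 1 replicate, below 0 without CVP2:NLS:VENUS replicates 1 (-0.09) or 4 or NSC replicate 3 (-0.03). CVL1 (-0.06) moved to 0.0414 with size factors, 0.62 with quantile normalization, and -0.34 to 0.21 without 1 replicate, above 0 without CVP2:NLS:VENUS replicates 1 (0.20) or 2. CLE25 (-0.26) moved to 0.31 with quantile normalization and -0.64 to 0.0585 without 1 replicate, above 0 without CVP2:NLS:VENUS replicate 2 (0.02) or NSC replicate 4. ATMG00020 (-1.09) moved to 2.68 without replicates 1 and 4, and -2.41 to 2.43 without 1 replicate, above 0 without CVP2:NLS:VENUS replicate 1. AGP2 (-0.16) moved to 0.0630 with size factors, 0.37 with quantile normalization and 0.15 with sample weights. With the replicate number as a block 1377 genes were higher and 3088 lower, but samples sharing a number deviated together weakly (r = 0.07, -0.10, 0.04 and 0.14 for numbers 1 to 4), so the numbers do not pair them. The depth of the samples is unknown, and genes at 0 cannot be told apart from genes not detected.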
